A study of Homo sapiens with 24 samples.

Results

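The response of SW-13 cells to IFNγ under a control siRNA was read from 6 of the 24 arrays in the deposited table, the 3 arrays labelled siCtrl with IFNγ and the 3 labelled siCtrl without it. SW-13 cells derive from a human carcinoma of the adrenal cortex and lack the chromatin remodelling ATPase BRG1, so every group shares that deficiency. All 6 cultures received 50 nM siCtrl in repeated transfection cycles, and 3 were then exposed to human IFNγ for 6 hours, at a concentration stated as 0.1 mg/ml. The remaining arrays came from cells that received 50 nM siCtrl with 75 nM siBRM, 50 nM siSUZ12, or siSUZ12 with siBRM, each without and with IFNγ on 3 arrays apiece. The added siBRM also raised the total siRNA dose, and these 2 differences from siCtrl cells cannot be told apart. SUZ12 is a core subunit of Polycomb Repressive Complex 2, which places a repressive methyl mark on histone H3, and BRM is the ATPase related to BRG1. The methods call the 3 arrays of a group biological replicates.

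IFNγ is a cytokine made chiefly by natural killer and T cells. It binds a receptor found on most cell types, and signalling from that receptor raises a first set of IFNγ-stimulated genes (ISGs) within hours. Some of their products are transcription factors that in turn act on further ISGs. Known ISGs serve antigen presentation, antiviral defence and the recruitment of T cells, and a sample at 6 hours can hold transcripts of both waves.

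The arrays were Illumina HT-12 BeadChips, on which the brightness of each of 47231 probes reports the level of 1 transcript. The table pairs no probe with a gene, and 0 of the probe IDs were found in the gene tables used here, so the response is described probe by probe, several probes may read the same gene, and neither the marker genes of the line nor the knockdown of SUZ12 and BRM was read. The mean signal of the 6 arrays before scaling ran from 532 to 618. Between 15274 and 15892 probes per array were detected, meaning a detection p-value below 0.01. Log2 signals correlated at 0.995 among the untreated siCtrl arrays, at 0.994 to 0.995 among those with IFNγ, and at 0.993 to 0.994 between them. Signals below are scaled to a common array mean, with no background subtracted, and folds of dim probes are therefore understated. The number of arrays limits the precision. With 3 arrays against 3, a permutation test of a single probe cannot give a p-value under 0.10, so probes were tested with limma, which shares the spread over the 24 arrays and over probes.

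At 6 hours and at the 2-fold level, the IFNγ response of siCtrl cells was narrow and almost entirely upward. IFNγ raised 58 of the 47231 probes ≥ 2-fold, or 0.123%, and lowered 1, or 0.00212% (limma, Benjamini-Hochberg adjusted p below 0.05). The median log2 change over all probes was -0.01. The 58 raised probes had a median log2 rise of 1.57, or 2.96-fold, and quartiles of 1.22 and 2.13. A rise of ≥ 16-fold was seen at 1 probe, of ≥ 8-fold at 5, of ≥ 4-fold at 20, and of 2- to 4-fold at the remaining 38. The weakest of the 58 had a log2 rise of 1.01, and the 3 probes next below the threshold had 0.999, 0.998 and 0.938.

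**Figure D1:**
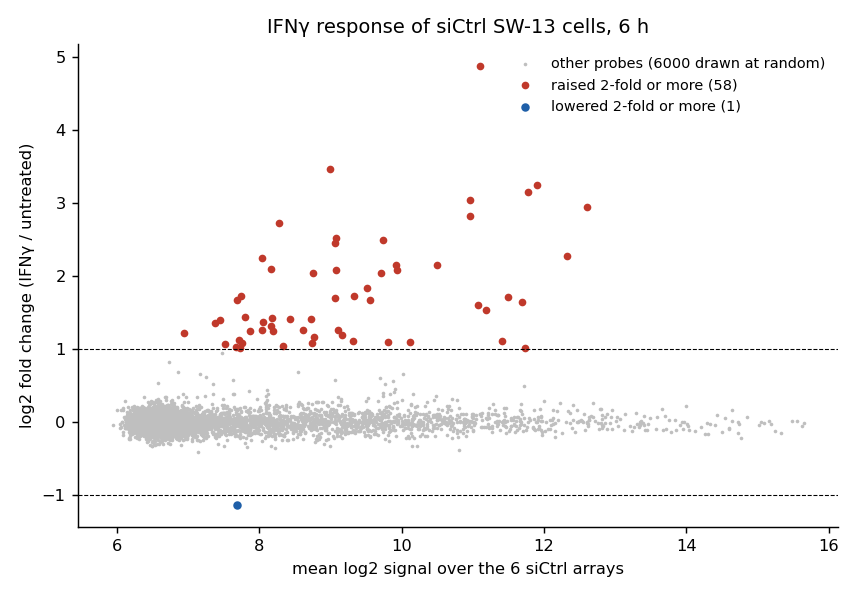
Log2 fold change by IFNγ in siCtrl cells (y axis) against the mean log2 signal over the 6 siCtrl arrays (x axis), 1 point per probe, with dashed lines at 2-fold. The 58 raised probes (red) lie above the upper line at dim and bright signals, the 1 lowered probe (blue) lies below the lower line, and other probes (grey, a random draw) lie around 0.

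The largest rise was that of probe ILMN_1708375. Its signal was 405, 420 and 400 on the 3 untreated siCtrl arrays and 11977, 11174 and 12721 on the 3 with IFNγ. The groups lie far apart, with the lowest array with IFNγ well above the highest without it. The means were 408 ± 10.7 and 11957 ± 774 (SD, n = 3 each), a log2 rise of 4.87 (standard error 0.08) or 29.3-fold, with an adjusted p = 1.45e-31 from limma. All 6 arrays detected the transcript, so it was present before the cytokine was added, and with IFNγ it was among the brightest 1% of probes.

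Probe ILMN_2376108 had the second largest rise, from a signal near the detection limit. The untreated siCtrl arrays read 157, 159 and 144, and those with IFNγ 1834, 1616 and 1648. Again no array of one group reached the other. The means of 154 ± 8.02 and 1699 ± 117 (SD, n = 3 each) gave a log2 rise of 3.47 (standard error 0.09), or 11.1-fold, with an adjusted p = 1.61e-25 from limma. After background correction with neqc its log2 rise was 4.37. Its untreated signal was detected by all 3 siCtrl arrays, although by 0 of the 3 untreated siCtrl + siBRM arrays, where it was 129 ± 5.64 (SD, n = 3).

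**Figure D2:**
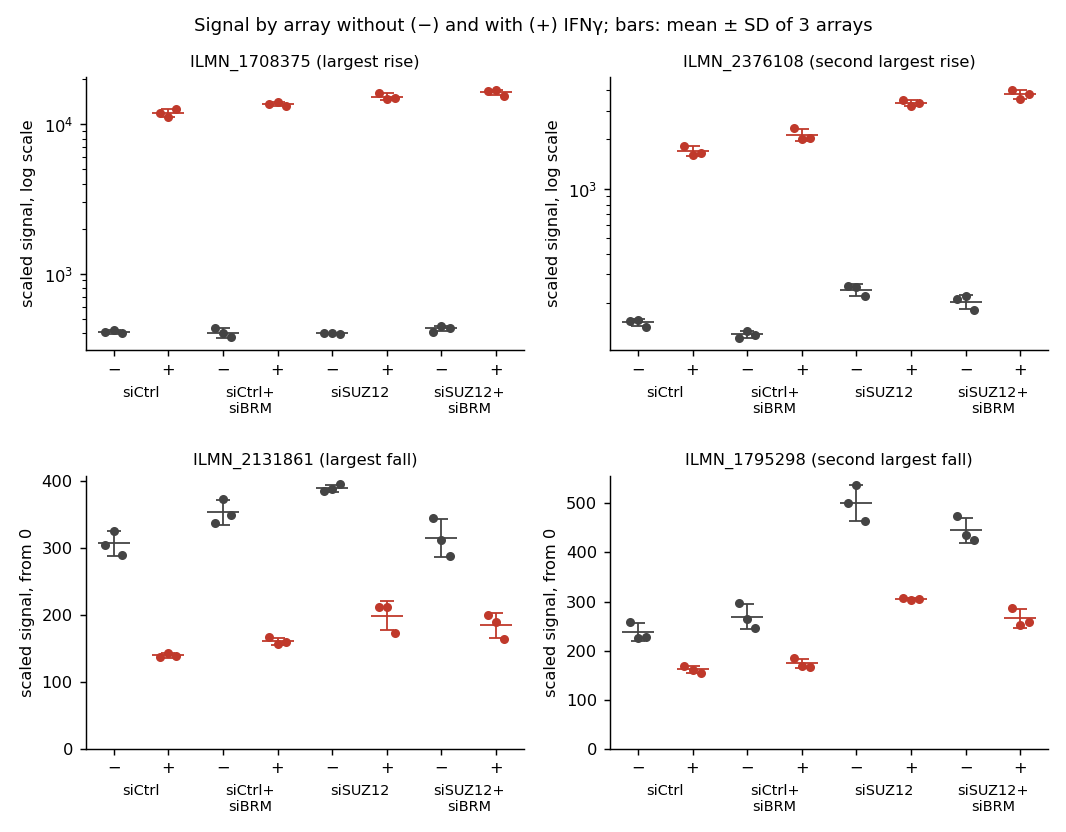
Scaled signal on each array of the 2 probes with the largest rise (upper panels, log axis) and the 2 with the largest fall (lower panels, axis from 0) in siCtrl cells, without (grey) and with (red) IFNγ in each of the 4 siRNA backgrounds. Points are arrays and bars give the mean ± SD of 3; in siCtrl cells the largest rise goes from 408 to 11957 and the largest fall from 307 to 139.

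The rises were even across arrays. All 58 probes had their 3 arrays with IFNγ above their 3 untreated arrays, against 6.07% of all probes, although a call required probes to differ. It follows that all 58 were higher in each of the 9 pairs of 1 treated and 1 untreated array. The median log2 rise ran from 1.43 to 1.63 over the pairs. The median replicate SD of the 58 on the log2 scale was 0.0913, beside 0.101 over all probes. The rise was at least 6.57 times the replicate SD of its own probe at each of the 58, which were called on these same arrays.

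Most of the 58 raised probes were already detected in untreated cells. Of the 58 probes, 46, or 79.3%, were detected on all 6 siCtrl arrays, against 13953 of all 47231 probes. The mean untreated signals of the 46 ran from 143 to 2409 and reached 309 to 17204 with IFNγ. Another 8 probes were detected on no untreated siCtrl array and on all 3 with IFNγ, with signals of 81.0 to 127 before and 187 to 797 after. The last 4 were detected on 1 or 2 of the untreated arrays. The median log2 rise was 1.62 for the 46 probes present throughout, 1.53 for the 8 that appeared with IFNγ and 1.23 for the other 4. None of the 5 probes that rose ≥ 8-fold was among the 8 that appeared with IFNγ, and 2 of the 15 that rose 4- to 8-fold were. For the 8 probes the untreated signal is background, so a fold computed from it understates the rise. The 2-fold rule can leave out other probes of this kind, so the share of 79.3% holds for the 58 called by that rule.

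**Figure D3:**
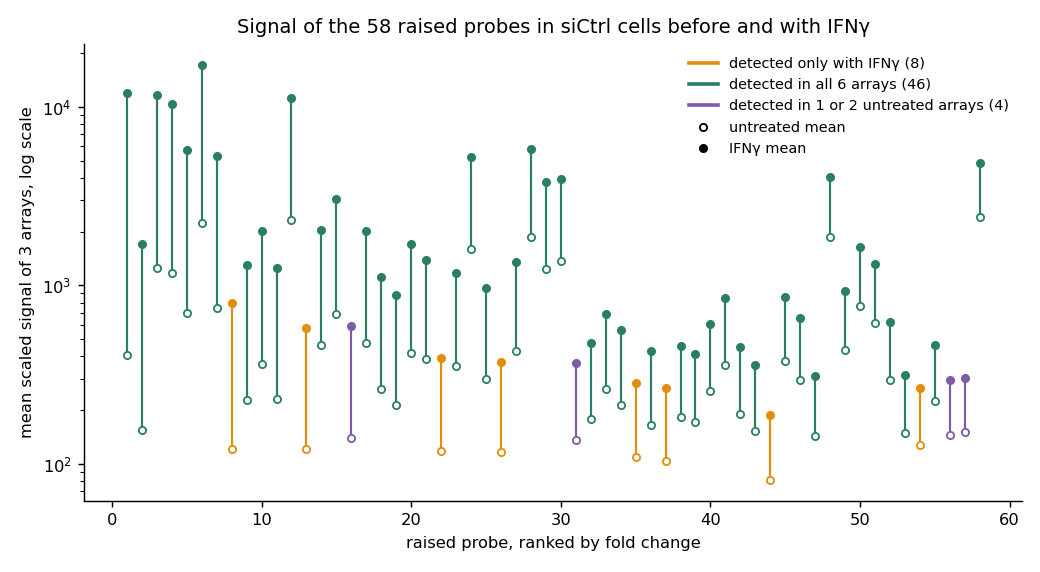
Mean scaled signal of 3 siCtrl arrays (y axis, log scale) without (open) and with (filled) IFNγ for each of the 58 raised probes, ranked by fold change (x axis). Colours give detection: 46 probes were detected on all 6 arrays (green), 8 only with IFNγ (orange) and 4 on 1 or 2 untreated arrays (purple).

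Before IFNγ the 58 probes had a median signal of 279, which lay at percentile 80.0 of all probes, and with IFNγ a median of 905, at percentile 90.9. Untreated, 5 of them were among the brightest 5% of probes and 0 among the brightest 1%. With IFNγ these counts were 17 and 5. On the untreated siCtrl arrays the 58 probes held from 0.110% to 0.115% of the summed signal of an array, and from 0.504% to 0.522% with IFNγ. The number of them detected per array was 47 to 49 untreated and 58 on every array with IFNγ.

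In scaled signal, the order of the probes differed from that by fold, although the brightness of different probes is not a common scale of transcript amount. The largest gain was that of the probe ranked 6 by fold, whose signal went from 2241 ± 62.1 to 17204 ± 357 (SD, n = 3 each), a log2 rise of 2.94. The other large gains were at the probes ranked 1, 3, 4 and 12. The rank 3 probe went from 1244 ± 105 to 11695 ± 581, the rank 4 probe from 1177 ± 108 to 10418 ± 642, and the rank 12 probe from 2327 ± 96.8 to 11204 ± 524 (SD, n = 3 each). Over the 58 probes, which share arrays and a background level, the untreated signal was only weakly related to the log2 rise (Spearman's rho 0.22, Pearson's r 0.23 on log2 signals, given as a description).

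Below 2-fold lay a larger set of weak rises. At an adjusted p-value below 0.05 with no limit on the fold, IFNγ raised 280 probes, or 0.593%, in siCtrl cells, of which 222 rose less than 2-fold. Their log2 rises ran from 0.31 to 0.999 with a median of 0.51, and 79 reached 1.5-fold. Of the 222, 180 were detected on all 6 siCtrl arrays, 18 on no untreated array and all 3 with IFNγ, and 5 on no array. Without regard to multiple testing, 1615 probes rose and 1591 fell at an unadjusted p-value below 0.05.

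Falls were few and shallow. The largest fall was that of probe ILMN_2131861, the only probe lowered ≥ 2-fold. Its signal was 305, 326 and 290 on the untreated siCtrl arrays and 137, 143 and 139 with IFNγ, where 2 of the 3 arrays detected it. The 2 groups did not overlap, and the arrays with IFNγ sat near the detection limit. The means of 307 ± 18.2 and 139 ± 3.25 (SD, n = 3 each) gave a log2 change of -1.14 (standard error 0.09), with an adjusted p = 1.38e-11 from limma. With neqc the log2 change was -1.90. The second largest fall, that of ILMN_1795298, was from 258, 225 and 227 to 169, 161 and 154. Its means were 237 ± 18.6 and 161 ± 7.26 (SD, n = 3 each), a log2 change of -0.55 (standard error 0.08, adjusted p = 5.53e-05 from limma), and all 6 arrays detected it.

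At an adjusted p-value below 0.05 alone, IFNγ lowered 60 probes, or 0.127%, with a median log2 change of -0.36 and a range from -1.14 to -0.30. Of these 60, 51 were detected on all 6 siCtrl arrays, 2 on all 3 untreated arrays and none with IFNγ, and 3 on no array. All 60 had their 3 arrays with IFNγ below their 3 untreated arrays, against 6.51% of all probes, although a call required probes to differ. Only 1 of the 60 fell by 1.5-fold or more. This count moved with single arrays: without siCtrl with IFNγ replicate 2 it was 31 and without replicate 3 it was 28, and without untreated siCtrl replicate 2 or 3 it was 19 or 39. Leaving out a replicate number from all groups gave 7 to 23. By the same rule, the 280 rises became 198 to 258 under these omissions.

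The 3 other siRNA backgrounds had untreated arrays of their own, so they show the same probes on arrays that did not choose them. All 58 probes were called raised ≥ 2-fold in siCtrl + siBRM cells, where 75 probes, or 0.159%, were called by limma at the same thresholds. Among siSUZ12 cells, where 130 probes, or 0.275%, were called, and in siSUZ12 + siBRM cells, where 140, or 0.296%, were called, all 58 were again among them. The 58 made up 77.3% of the probes called in siCtrl + siBRM cells, 44.6% of those in siSUZ12 cells and 41.4% of those in siSUZ12 + siBRM cells. The 17 probes called in siCtrl + siBRM but not in siCtrl cells had a median log2 rise of 0.88 in siCtrl cells, and each of the 17 passed an adjusted p-value of 0.05 there. Of the 72 further probes in siSUZ12 cells, 52 passed it in siCtrl cells and 69 had a log2 change above 0, with a median of 0.64. For the 82 further probes in siSUZ12 + siBRM cells these values were 61, 77 and 0.61.

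The weak rises were also seen on the other arrays. Of the 222 probes raised less than 2-fold in siCtrl cells, 221 had a log2 change above 0 in siCtrl + siBRM cells, 222 in siSUZ12 cells and 221 in siSUZ12 + siBRM cells. Over all probes the shares above 0 were 52.3%, 31.4% and 42.9%. The rise was past an adjusted p-value of 0.05 at 199, 198 and 206 of the 222 in these 3 backgrounds, against 0.987%, 1.2% and 1.44% of all probes, and at 184 in all 3. It reached 2-fold at 17, 52 and 61 of them. Of the 60 lowered probes, 57, 53 and 56 had a change below 0, and 28, 30 and 34 were lowered at an adjusted p-value below 0.05, against 0.315%, 0.711% and 0.915% of all probes. Over the 60 probes the median log2 changes were -0.30, -0.29 and -0.30 in these backgrounds, and 18 of the 60 were lowered in all 3.

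**Figure D4:**
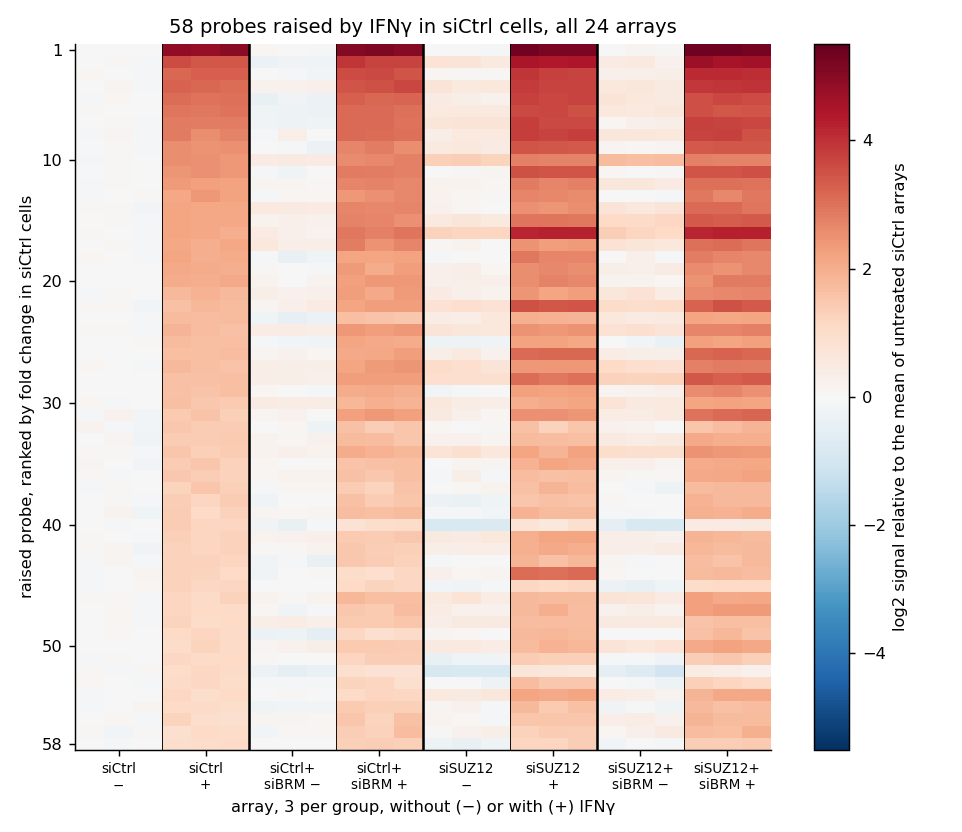
Log2 signal of the 58 raised probes (rows, ranked by fold change in siCtrl cells) on all 24 arrays (columns, 3 per group), relative to the mean of the untreated siCtrl arrays. Columns with IFNγ (+) are red in all 4 siRNA backgrounds and untreated columns (−) are paler; with siSUZ12 the untreated columns are tinted at many probes, and the 58 hold 0.142% to 0.146% of the summed signal there against 0.110% to 0.115% with siCtrl.

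The rises of the 58 probes were smaller in siCtrl cells than in the other backgrounds at most probes. Their median log2 rise was 1.57 in siCtrl, 1.93 in siCtrl + siBRM, 1.89 in siSUZ12 and 1.96 in siSUZ12 + siBRM cells, while the median over all probes was -0.01, 0.01, -0.05 and -0.02. Over the pairs of single arrays it ran from 1.80 to 1.95, from 1.86 to 1.95 and from 1.88 to 2.06 in the latter 3, all above the highest value in siCtrl cells, 1.63. The estimated rise was larger than in siCtrl cells at 52 of the 58 probes with siBRM, where 53.3% of all probes had a larger change, and at 53 with siSUZ12, where 37.5% did. Each such difference uses the same 6 siCtrl arrays, on which the 58 probes were also chosen.

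Probe by probe, no difference between siCtrl + siBRM and siCtrl cells passed the test. At 0 of the 47231 probes did the IFNγ effect differ at an adjusted p-value below 0.05 (limma), while 1895 differed at an unadjusted p-value below 0.05 and the lowest adjusted p was 0.0591. Among the 58 raised probes, 29 had a larger and 1 a smaller rise with siBRM at an unadjusted p-value below 0.05 (limma). Of all 47231 probes, 1191 had a larger and 704 a smaller change at that level. Over the 58 probes the log2 differences ran from -0.28 to 0.73 with a median of 0.25. Untreated levels of the 58 probes also differed, in both directions. They held 0.121% to 0.124% of the summed signal on untreated siCtrl + siBRM arrays and 0.110% to 0.115% on untreated siCtrl arrays. Their median log2 signal was 7.97 to 8.03 on the former and 8.05 to 8.17 on the latter. The part of this in the differences was not tested. The 95% interval of a single difference reached 0.24 to either side, as a median over the 58, a half-width about as large as the median difference itself. For ILMN_2376108 the fitted log2 difference was 0.57, with a 95% interval from 0.32 to 0.82 and an adjusted p = 0.485 from limma. Since 0 of the 3 untreated siCtrl + siBRM arrays detected it, its rise there is over background, and the size of the difference cannot be read. For ILMN_1708375 the log2 difference was 0.22, from -0.00 to 0.44, with an unadjusted p = 0.055 from limma.

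With siSUZ12, the IFNγ effect differed from that in siCtrl cells at 86 probes in the upward direction, or 0.182%, and at 8 downward, or 0.0169% (limma interaction, adjusted p below 0.05). Among the 58 raised probes it was larger at 18 and smaller at 1. The difference was ≥ 2-fold at 20 probes upward, or 0.0423%, and at 1 downward, and 2 and 1 of the 58 were among them. By detection in siCtrl cells, the 18 were 5 of the 8 probes that appeared with IFNγ, whose untreated siCtrl signal was background, 2 of the 4 between and 11 of the 46 present throughout. By size, they were 1 of the 5 probes raised ≥ 8-fold, 3 of the 15 raised 4- to 8-fold and 14 of the 38 raised 2- to 4-fold. The log2 difference was 0.39 at ILMN_1708375, with a 95% interval from 0.17 to 0.61 and an adjusted p = 0.252, and 0.32 at ILMN_2376108, from 0.07 to 0.57 with an adjusted p = 0.793 (limma). Before IFNγ the 58 probes already differed between these cells. They held 0.142% to 0.146% of the summed signal on untreated siSUZ12 arrays and 0.110% to 0.115% on untreated siCtrl arrays. On these arrays 53 to 55 against 47 to 49 of them were detected. Detection was also higher over all probes, at 33.3% to 35.6% on untreated siSUZ12 and 32.3% to 33.3% on untreated siCtrl arrays. The part of these untreated levels in the differences was not tested. The count of 18 depended on the arrays used. It was 11 without untreated siCtrl replicate 2, 11 without untreated siSUZ12 replicate 2, 7, 5 and 8 without replicate number 1, 2 and 3, and 11 after background correction with neqc.

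**Figure D5:**
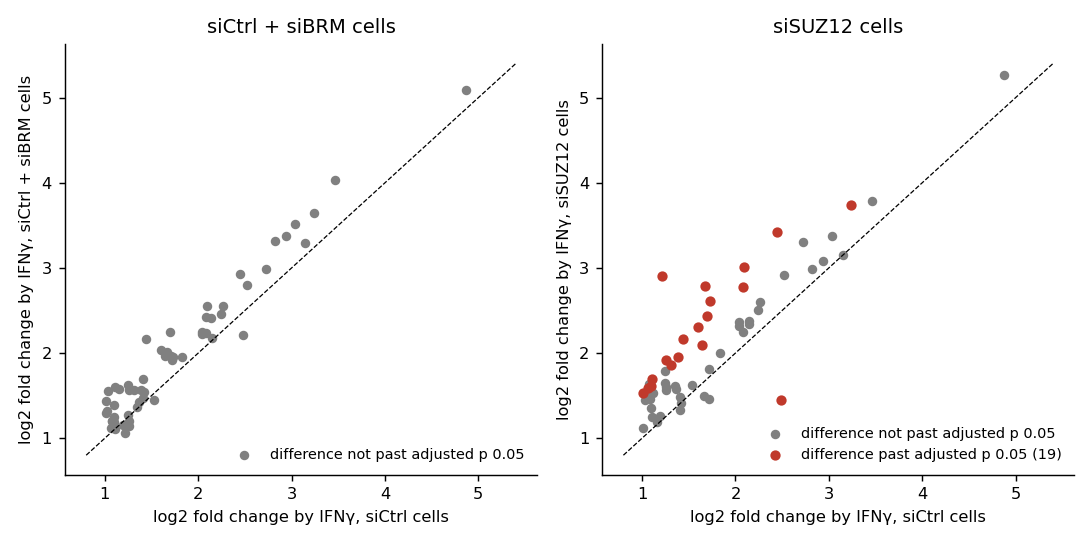
Log2 fold change by IFNγ of the 58 raised probes in siCtrl + siBRM cells (left, y axis) and siSUZ12 cells (right, y axis) against siCtrl cells (x axis), with the line of equal change dashed. Of the 58 points, 52 lie above the line at left and 53 at right; red points at right are the 19 probes whose difference was past an adjusted p-value of 0.05, and 0 points were at left.

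At 3 of the 58 raised probes, named here by rank after their values were seen, the fitted IFNγ effect differed ≥ 2-fold between siSUZ12 and siCtrl cells. The rank 44 probe was detected on no untreated array of either group. In siCtrl cells its signal went from 74.6, 79.9 and 88.6 to 197, 190 and 175, and in siSUZ12 cells from 97.4, 86.0 and 90.4 to 686, 670 and 691. With both untreated signals at background, the log2 values of 1.21 and 2.90 understate the rises, and no size is given here for the difference between them. With IFNγ the siSUZ12 arrays all lay above the siCtrl arrays, and all 6 detected it.

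The rank 26 probe was also undetected in untreated siCtrl cells, at 114, 116 and 119, and read 361, 366 and 382 with IFNγ. In siSUZ12 cells it was detected on all 3 untreated arrays, at 145, 169 and 136, and read 1008, 1050 and 1036 with IFNγ. The log2 values were 1.67 and 2.79. The first is over a background signal and understates the rise, so the size of the difference cannot be read from them.

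The rank 10 probe was the only 1 of the 58 with a smaller rise in siSUZ12 cells at an adjusted p-value below 0.05. The estimated rise was smaller at 5 of the 58. Its signal went from 337, 382 and 362 to 2122, 2042 and 1885 in siCtrl cells, and from 899, 915 and 853 to 2471, 2395 and 2387 in siSUZ12 cells. The untreated siSUZ12 arrays were all above the untreated siCtrl arrays, whereas with IFNγ the 2 groups lay closer together. The log2 rise was 2.48 in siCtrl and 1.44 in siSUZ12 cells, a difference of -1.04 (adjusted p = 6.53e-08 from limma). It was 2.21 in siCtrl + siBRM and 1.04 in siSUZ12 + siBRM cells, where the untreated signal was 498 ± 7.45 and 1165 ± 44.4 (SD, n = 3 each).

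The named falls kept their direction in every background. At ILMN_2131861 the log2 change was -1.14 in siCtrl + siBRM, -0.98 in siSUZ12 and -0.77 in siSUZ12 + siBRM cells, and at ILMN_1795298 it was -0.63, -0.71 and -0.75. Their differences from siCtrl cells were not past the test for either siSUZ12 (ILMN_2131861, log2 difference 0.16, 95% interval from -0.09 to 0.41, adjusted p = 0.958 from limma) or siBRM (log2 difference -0.00, 95% interval from -0.25 to 0.25, unadjusted p = 0.991 from limma). With IFNγ, ILMN_2131861 sat near the detection limit in siCtrl cells, at a mean of 139 with 2 of 3 arrays detecting it. In siSUZ12 and siCtrl + siBRM cells all 3 arrays with IFNγ detected it, at means of 199 and 161. Its fall in siCtrl cells can thus be understated, and the size of its differences cannot be read. For ILMN_1795298 the differences were -0.16 with siSUZ12 (95% interval from -0.40 to 0.08) and -0.07 with siBRM (95% interval from -0.31 to 0.17).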

How the data were processed

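SW-13 RNA was hybridized as labelled cRNA to Illumina HT-12 arrays. The authors deposited, per array, the non-normalized signal intensity of 47231 probes with a detection p-value for each intensity; BeadStudio is named for processing, and whether background was subtracted is not given in the sources used here. No intensity was at or below 0 and 0 pairs of intensity columns were identical. Array medians were 97.9 to 120 before scaling with 32.2% to 35.6% of probes detected, so undetected probes kept a background signal. Samples were grouped by their labels.

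For average normalization, every array was multiplied so that its mean signal equalled the average of the 24 array means, and log2 signals were used. Under R 4.3.3, limma 3.58.1 (lmFit, contrasts, eBayes) fitted one mean for each group over all 24 arrays (16 residual degrees of freedom), two-sided, with Benjamini-Hochberg adjustment over 47231 probes. A call required both a ≥ 2-fold change and an adjusted p-value under 0.05. The fit was tested on simulated data. Plots were made in Python 3.11.15 using matplotlib 3.10.9.

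The comparison, lists and rules were chosen with earlier results of these data known. The rule for names was the 2 largest rises and 2 largest falls by probe ID. Gene lists, cell type markers and promoter motifs need gene names and were not analysed here. Alternatives were quantile normalization, median scaling, neqc (offset of 16), a detection filter, a fit of the contrast's arrays, a replicate block, the trend and robust options of eBayes, other call rules, and leaving out replicates or arrays.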

Additional observations from a re-analysis of the deposited data

Results flagged for a closer look

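The IFNγ effect differed between siSUZ12 and siCtrl cells by the interaction term of limma (Benjamini-Hochberg adjusted p below 0.05). It differed ≥ 2-fold at 21 probes of the array. Among the 58 probes raised in siCtrl cells, 18 had a larger and 1 a smaller IFNγ effect in siSUZ12 cells, whatever the size of the difference. The log2 difference, siSUZ12 minus siCtrl, was -1.04 at the probe ranked 10 by its rise in siCtrl cells (adjusted p = 6.53e-08 from limma), 1.12 at the rank 26 probe and 1.69 at the rank 44 probe. The latter 2 are values of the fit and not measured sizes of a difference in induction, since 0 of 3 untreated siCtrl arrays detected either probe, and at rank 44 0 of 3 untreated siSUZ12 arrays did. At each of the 3 probes, in every siRNA background, all 3 arrays with IFNγ lay above all 3 untreated arrays. Groups of 3 arrays were not tested for single arrays that stand apart.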

How the results depend on the processing

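The named probes kept their direction in every alternative run for them. The other results are counts, which have no direction to change. Leaving out a replicate number or an array gave 57 to 59 raised and 1 lowered probe in siCtrl cells, 57 to 59 of them called in siCtrl + siBRM and in siSUZ12 cells, and 20 to 26 probes whose IFNγ effect differed ≥ 2-fold with siSUZ12. The raised count was 58 under quantile normalization, with 57 probes shared, and 60 under median scaling. With neqc, IFNγ raised 95 probes (57 of the 58 among them) and lowered 3, 89 and 91 of the 95 were called with siBRM and siSUZ12, 55 differed with siSUZ12, 11 in place of 18 raised probes had a larger effect there, and 144 fell at an adjusted p-value alone. At 1.5-fold the counts were 137 raised, 131 and 130 of them called with siBRM and siSUZ12, and 68 that differed with siSUZ12. On the adjusted p-value alone they were 280 raised and 60 lowered, 257 and 256, and 94, by construction. The counts that follow were added after seeing the data. The 60 falls became 93 under quantile normalization, 182 with detected probes only, 27 in a fit of the contrast's arrays, 124 with trend and robust settings, and 7 to 45 without a replicate number or array, and the cause was not tested. The 280 rises became 252 to 409 under the other settings and 198 to 258 without a replicate number or array. The 18 larger effects with siSUZ12 became 11 to 22 and 5 to 15. Under the same omissions the 52 larger estimates with siBRM became 47 to 53, and the 53 with siSUZ12 became 51 to 55. With siBRM, 0 probes were counted as changed in each of the 25 alternatives (limma). Apart from the 1.5-fold and adjusted p-value rules, which recounted the main fit, these counts required a ≥ 2-fold difference. The log2 differences of the main fit ran only from -0.61 to 0.73, so a count of 0 was nearly fixed in advance. On the adjusted p-value alone the count was made in the main fit only, beside 1895 at an unadjusted p-value below 0.05.

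Same-numbered arrays did not deviate together in siCtrl cells (correlations of 0.05, -0.06 and 0.07), so the numbers were not read as pairs. Over all groups, 8, 1 and 8 of the 8 arrays numbered 1, 2 and 3 correlated best with their own number. With the number as a block, 58 probes were raised and 1 lowered. All 58 were called with siBRM and siSUZ12, and 21 probes differed ≥ 2-fold with siSUZ12. At an adjusted p-value below 0.05 alone, 310 probes rose and 73 fell with the block. Of the 58, 19 then had a larger effect with siSUZ12. The difference with siBRM was not counted on the adjusted p-value alone with the block. Each of the 4 named probes had the same direction and an adjusted p-value below 0.05 in all 16 alternatives run for it, with log2 changes of 4.81 to 5.14 for ILMN_1708375, 3.41 to 4.37 for ILMN_2376108, -1.90 to -1.09 for ILMN_2131861 and -0.92 to -0.49 for ILMN_1795298. The alternative that reads the other probes of a gene needs gene names and was not run.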
